A study of Mus musculus with 2 samples.

Results

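The immature neutrophils described here are liver cells whose transcripts were rich in Camp and Ngp, genes for proteins stored in the secondary granules of neutrophils. They were chosen by their transcripts. A cell was kept with at least 1000 unique molecular identifiers (UMIs, counted molecules), at least 500 detected genes and at most 15% mitochondrial UMIs. It was called an immature neutrophil when Camp and Ngp together made up at least 1% of its UMIs without Hba-a1, Hba-a2, Hbb-bs and Hbb-bt, the hemoglobin genes, and it had at most 2 UMIs of Elane, Mpo, Prtn3 and Ctsg, the serine proteases and peroxidase of earlier precursors. The rule found 582 cells among 25418 kept cells, of which 581 came from the Ter119 library and 1 from the saline library. Both libraries come from C57BL/6J mice aged 7 to 10 weeks, with 1 library for each treatment. The number of mice behind each library was not established. The treatment was Ter119, an antibody against a surface antigen of mouse red blood cells and their precursors. It was given as 35 ug under the skin and then as 10 daily doses of 10 ug. The control was a similar volume of saline. Livers were taken at 24 after the last injection, in a time unit that the labels do not give. Non-parenchymal cells bound by beads coated for F4/80 and CD11b were tagged, pooled and sequenced in droplets. CD11b is carried by neutrophils and monocytes as well as macrophages, so the capture could take in neutrophils. With 1 library a group, the effect of the antibody cannot be told apart from differences between mice or libraries, and no difference was tested.

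Neutrophils are made in stages, and each stage packs a different kind of granule. Promyelocytes make the primary granule proteins, among them elastase and myeloperoxidase. Myelocytes and metamyelocytes then make the secondary granule proteins under the transcription factor C/EBP-epsilon, and the last stages make gelatinase and the receptors used to leave the marrow. Cell division ends during the secondary granule stage, and these stages normally take place in the bone marrow.

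Camp, Ngp and Ltf, which code for a cathelicidin peptide precursor, neutrophilic granule protein and the iron-binding lactoferrin, lie within 1.2 megabases of each other on mouse chromosome 9. Camp spans chr9:109847379-109849617 on the minus strand, Ngp chr9:110419747-110423012 on the plus strand and Ltf chr9:111019271-111042767 on the plus strand. Of the other markers given for these cells, Lcn2, which codes for a protein that binds bacterial siderophores, spans chr2:32384633-32388252 on the minus strand. Wfdc21, which codes for a whey acidic protein domain protein, spans chr11:83746940-83752642 on the plus strand. These positions are from GENCODE vM21 on GRCm38. The promoter sequences of Camp, Ngp and Ltf are shown because these genes lead the profile of the cells. They are RefSeq sequences on GRCm38.p6, each reduced to the stretch before the gene's start that holds no annotated exon, and capitals mark matches to the C/EBP-type motif TTNNGNAA or its reverse complement TTNCNNAA.
Camp, chr9:109849618-109849706, minus strand: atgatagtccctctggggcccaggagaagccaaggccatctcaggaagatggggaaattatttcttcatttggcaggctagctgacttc
Ngp, chr9:110419558-110419746, plus strand: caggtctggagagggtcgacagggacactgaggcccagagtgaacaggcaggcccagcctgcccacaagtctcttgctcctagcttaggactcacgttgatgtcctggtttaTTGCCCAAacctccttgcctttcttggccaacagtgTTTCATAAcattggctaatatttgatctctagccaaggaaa
Ltf, chr9:111019042-111019270, plus strand: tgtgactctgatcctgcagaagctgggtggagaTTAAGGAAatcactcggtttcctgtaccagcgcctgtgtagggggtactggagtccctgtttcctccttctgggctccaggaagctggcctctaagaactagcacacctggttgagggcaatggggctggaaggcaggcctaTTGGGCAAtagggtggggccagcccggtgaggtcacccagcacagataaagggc

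The Ngp and Ltf stretches each held 2 matches, and the Camp stretch held none. Over the full 250 bases before the RefSeq start, Ngp had 3 matches, Ltf 2, Lcn2 1 and Camp 0. The RefSeq starts differ from the GENCODE positions given above, and each of these windows reaches into the GENCODE span of its gene. The Lcn2 window, chr2:32387740-32387989, lies wholly inside that span. Of the 15 secondary granule genes with a RefSeq promoter entry, 10 had a match (66.7%), beside 40.3% of all 27025 genes with an entry and 33.6% of the 5001 such genes measured in these cells. A match is a description of letters and not a binding site.

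The saline library gave 11572 kept cells with a median of 6239 UMIs, and the Ter119 library 13846 with a median of 2803. The libraries shared 133 barcodes, which included 69 kept Ter119 cells and 6 of the immature neutrophils (1.03%). The immature neutrophils had a median of 2155 UMIs and 774 genes per cell, with a median of 1.92% mitochondrial UMIs. Summed over the 581 Ter119 cells, they held 1451612 UMIs without hemoglobin. Hemoglobin made up a further 7.68% of their total, beside 10.9% in the 12900 Ter119 cells outside the neutrophil and progenitor groups.

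Immature neutrophils were 4.20% of the kept Ter119 cells (581 of 13846, 95% Clopper-Pearson interval 3.87 to 4.54) and 0.00864% of the kept saline cells (1 of 11572, 0.000219 to 0.0481). These intervals, like all others here, cover counting error only, and they say nothing of the spread between mice. The single saline cell had 2340 UMIs, of which Camp and Ngp made up 2.86% and S100a8 and S100a9 17.4%, and it carried 52 UMIs of the late genes Retnlg, Csf3r and Cxcr2. Neutrophils low in Camp and Ngp were found in both libraries. They had at least 1% S100a8 and S100a9, at least 1 UMI of Retnlg, Csf3r or Cxcr2 and under 0.5% Camp and Ngp, and they numbered 302 in Ter119 and 276 in saline. Among both kinds of neutrophil together, the immature cells made up 65.8% in Ter119 (62.6 to 68.9) and 0.361% in saline (0.00914 to 1.99). The Ter119 share depended on how the low group was drawn. It was 86.1% when the low group had to hold at least 5% S100a8 and S100a9, and 37.0% when cells of 500 UMIs and 250 genes were admitted.

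All 5 markers given for the cells, Camp, Ngp, Ltf, Lcn2 and Wfdc21, were detected together in 572 of the 581 cells (98.5%). The rule used Camp and Ngp, so their levels are a description. Camp and Ngp made up a minimum of 1.00%, a median of 6.59% and a maximum of 13.3% of a cell's UMIs. S100a8 and S100a9, the subunits of calprotectin, the main cytosolic protein of neutrophils, made up a minimum of 2.68%, a median of 27.2% and a maximum of 45.4%, although the rule did not ask for them. All 581 cells were above 1%, so every cell carried a neutrophil signature. The 10 most abundant genes, S100a8, S100a9, Camp, Ngp, Tmsb4x, Actb, Lcn2, Fth1, Lyz2 and Ltf, took 36.7% of all UMIs without hemoglobin. Of the precursor genes, 559 cells had 0 UMIs, and Mpo had 0 counts over all 581 cells. A UMI of Retnlg, Csf3r or Cxcr2, genes of later neutrophils, was present in 308 cells (53.0%). The markers therefore fit the label, with the limit that the label was given with these markers in view.

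**Figure D1:**
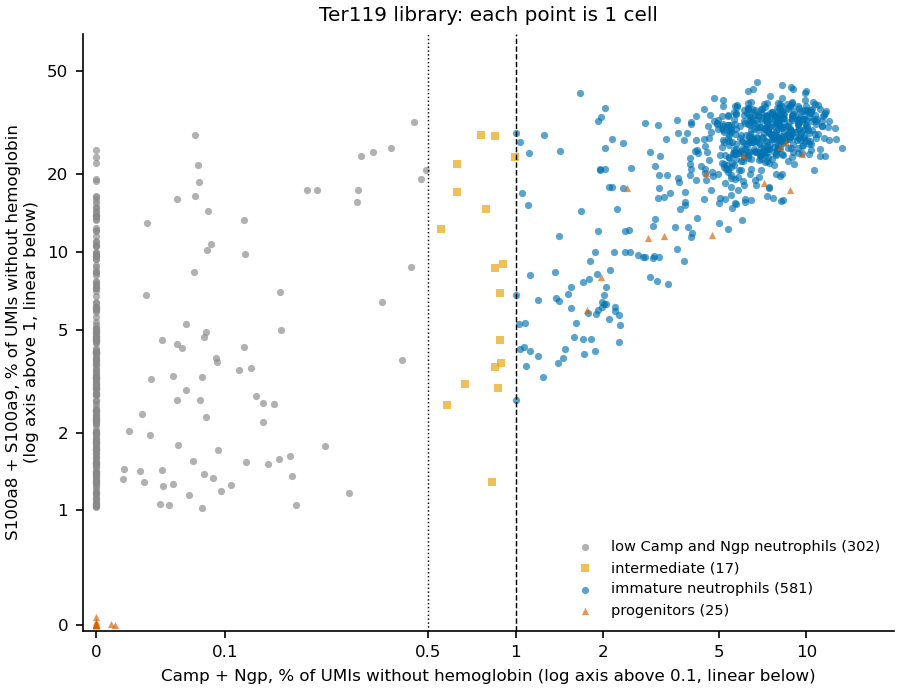
Each point is 1 Ter119 cell, with Camp and Ngp on the x axis and S100a8 and S100a9 on the y axis, both as percent of UMIs without hemoglobin. The dashed line at 1% and the dotted line at 0.5% are the limits of the rule, and most of the 581 immature cells sit in 1 dense group around 6.59% and 27.2%.

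Cells near the threshold were few. With Camp and Ngp from 0.75% to 1%, just outside, there were 16 Ter119 cells, with 1372 counts per 1000000 UMIs without hemoglobin (CPM) of Ltf, 1935 CPM of Lcn2 and 3078 CPM of Retnlg. From 1% to 1.25%, just inside the limit, there were 17 cells with 1843 CPM of Ltf, 2536 CPM of Lcn2 and 2215 CPM of Retnlg. Both sets had a median of over 1% of UMIs from 11 Kupffer cell markers, 1.53% outside and 1.92% inside. At the other limit, 5 cells had exactly 2 precursor gene UMIs and a median of 8.75% Camp and Ngp, and 5 cells just outside had 3 and a median of 9.37%.

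RNA of other liver cells was present in the immature neutrophils and more so in the cells they are compared with. Kupffer markers summed to 7277 CPM in the immature cells, 15896 CPM in the low Camp and Ngp group and 21137 CPM in the other Ter119 cells, with none of the 11 markers at 0 in any of these groups. The 9 endothelial markers summed to 285 CPM, 1163 CPM and 1132 CPM in the same order. Of the immature cells, 89 (15.3%) had over 1% Kupffer and endothelial marker UMIs, beside 214 of the 302 low cells (70.9%). The low group also held less S100a8 and S100a9, with a median of 3.27%, and more hemoglobin, at 16.6% of its UMIs. No doublet caller was run, and the part of mixed barcodes in these values was not tested. Each comparison is therefore also given for cells with at most 1% of those markers (492 immature and 88 low cells) and for the 94 low cells with at least 5% S100a8 and S100a9. Of the other marker lists, the 8 dendritic cell markers summed to 901 CPM in the immature and 3032 CPM in the low cells, with Xcr1 and Siglech at 0 in the immature cells. The 10 monocyte markers summed to 1189.7 CPM and 1421 CPM, and the 6 hepatocyte markers to 219.8 CPM and 353 CPM. The 7 T or NK cell markers were at 26.2 CPM and 111 CPM, with Cd3e, Trac and Klrb1c at 0 in the immature cells. B or plasma cell markers (22.0 CPM and 26.6 CPM), markers of basophils, mast cells or eosinophils (28.2 CPM and 26.6 CPM) and platelet markers (9.64 CPM and 15.6 CPM) were low in both groups. Progenitor markers, which the rule limits, were at 53.7 CPM and 25.01 CPM. The 9 erythroid markers, which include the hemoglobin genes, summed to 83351 CPM and 199453 CPM.

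The neutrophil genes were also found at a low level in barcodes of other cell types. Camp had a UMI in 5.64% of 1047 cells with at least 1% endothelial marker UMIs (median 1416 UMIs), beside 100% of the immature neutrophils (median 2155 UMIs) and 15.6% of the low group (median 1975 UMIs). Ltf had one in 0.764%, 99.3% and 6.29%, and Lcn2 in 2.48%, 99.7% and 48.0%. Lcn2 in the low group was thus far above the share in endothelial-marked cells, and Ltf was nearer to it.

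The comparison of immature with low Camp and Ngp neutrophils was drawn by the genes themselves, in the Ter119 library, and all its values are descriptions. It does not show that the low cells are neutrophils past the secondary granule stage. Of the 302 low cells, 214 had over 1% Kupffer and endothelial marker UMIs. Of 6300 genes with at least 20 CPM in either group, 6.29% stood at least 2-fold higher in the immature cells (396 genes) and 26.7% at least 2-fold lower (1685 genes). The median log2 ratio over these genes was -0.57. Part of this offset lies in the scale, because the 11 genes named in the rule took 29.7% of the immature cells' UMIs and 4.49% of the low cells'. Leaving them out of the totals adds 0.44 to every log2 ratio and moves the median to -0.08. It gives 766 genes higher and 724 lower among 6705 genes. Normalization by edgeR's trimmed mean of M-values adds 0.60 and gives 854 higher and 424 lower among 6087 genes. List medians below are therefore read against the -0.57 of all genes. Leaving out barcodes found in both libraries gave 403 genes higher and 1682 lower. With at most 1% of other-cell markers the shares were 7.88% higher and 37.1% lower. With the low group at 5% or more S100a8 and S100a9 they were 9.03% and 26.1%.

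Secondary granule genes had the highest median of the 17 lists. Of 20 measured, 15 were at least 2-fold higher in the immature cells and none was 2-fold lower, with a median log2 ratio of 3.80. The median stayed above 2-fold with at most 1% other-cell markers (2.69) and against the low cells rich in S100a8 and S100a9 (2.14). Without Camp and Ngp, which the rule used, 13 of 18 were higher with a median of 3.28. The list was chosen with results of these cells known.

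Camp was at 33992 CPM in the immature cells, 144 CPM in the Ter119 low group and 1.18 CPM in the saline low group. Ngp was at 28539, 197 and 7.09 CPM in the same order. Ltf was at 7158, 43.8 and 3.55 CPM, and its ratio of immature to low Ter119 cells was 164 (95% interval 113 to 246). The low group's limit sets its Camp and Ngp, but not its Ltf. Lcn2 was at 11562 CPM in the immature cells, 585 CPM in the Ter119 low group and 950.2 CPM in the saline low group, a ratio of 19.8 (17.9 to 22.0) within Ter119. Wfdc21 was at 4262, 494 and 648 CPM, a ratio of 8.63 (7.71 to 9.69). Both kept their direction against the low cells rich in S100a8 and S100a9, at log2 ratios of 2.84 and 1.69.

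Chil3, which codes for the chitinase-like protein Ym1, followed the granule genes: 5458 CPM in the immature cells, 46.9 CPM in the Ter119 low group and 5.91 CPM in the saline low group, and a UMI in 96.0% of the immature cells. Fcnb, which codes for the pattern-recognition lectin ficolin-B, was at 292 CPM with 0 counts in the low group. Its ratio was 62.3 against a floor of 3 counts over that group, a point value and not a lower limit. Cd177, a neutrophil surface glycoprotein, was at 845 CPM against 42.2 CPM. Anxa1, which codes for annexin A1, was at 2169 CPM against 198 CPM. Orm1, which codes for the plasma protein orosomucoid, was at 240.4 CPM against 3.13 CPM, with only 2 counts in the low group and a ratio of 76.9 (21.1 to 638). Olfm4, which codes for a granule glycoprotein known from a subset of neutrophils, had 170.2 CPM, but only 8.95% of the immature cells had a UMI. Lyz2 and Cyba, genes shared with macrophages, lay within 2-fold, at log2 ratios of 0.82 and 0.19. Fcnb, Cd177, Anxa1, Orm1, Olfm4, Lyz2, Cyba and Hp, and below Mki67, Top2a, Mmp9 and Cxcr4, were picked for naming after their values were seen.

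Primary granule genes were divided. Of 12 genes on the list the rule limits 4, and 5 of the other 8 reached 20 CPM. Among these 5, 2 passed 2-fold in the higher and 2 in the lower direction, or 2 and 0 with the rule's genes out of the totals. Serpinb1a, which codes for an inhibitor of neutrophil serine proteases, was at 498 CPM against 10.9 CPM, a ratio of 45.5 (22.0 to 114). Ms4a3, a gene of granulocyte and monocyte progenitors, was at 48.9 CPM with 0 counts in the low group, at least 10.4-fold higher. Calr and Ctsc, which code for the chaperone calreticulin and for cathepsin C, stood lower, at log2 ratios of -1.07 and -1.26. Both are also expressed by the other Ter119 cells, at 630 CPM and 1336 CPM. Elane at 4.13 CPM, Prtn3 at 13.1 CPM, Ctsg at 1.38 CPM and Mpo at 0 were held low by the rule.

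Tertiary granule genes did not move as 1 group. Pglyrp1, which codes for a peptidoglycan-binding granule protein, was at 2294 CPM against 511 CPM. Mmp8 and Mmp9, which code for neutrophil collagenase and gelatinase B, were at 723 CPM against 389 CPM and at 544 CPM against 322 CPM. Their direction depended on the low group, with log2 ratios of 0.89 and 0.76 for all low cells and of -0.56 and -0.36 for low cells rich in S100a8 and S100a9. Slpi, a secreted protease inhibitor, and Arg2, a mitochondrial arginase, stood lower, at log2 ratios of -1.20 and -2.13. Of 7 genes measured, 1 was 2-fold higher and 2 were 2-fold lower, and the list's median was -0.76, or 0.14 with at most 1% other-cell markers.

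Among transcription factors, Cebpe had the highest ratio. It codes for C/EBP-epsilon, the factor of the secondary granule stage. It was at 426 CPM in the immature cells (a UMI in 53.9% of cells), 10.9 CPM in the Ter119 low group (2.32% of cells), 8.27 CPM in the saline low group and 1.05 CPM in the other Ter119 cells. Its ratio was 39.0 (18.8 to 97.4), and its log2 ratio was 5.28, 5.35 and 5.73 against all low cells, with at most 1% other-cell markers and against the low cells rich in S100a8 and S100a9. No endothelial-marked cell had a Cebpe UMI (0 of 1047, with an upper Clopper-Pearson limit of 0.352%). Of 131 cells with B or T cell markers, 1.53% had one. Lmo4, which codes for a LIM-domain cofactor, was at 360.3 CPM against 148 CPM, a log2 ratio of 1.28. Its log2 ratio was 0.58 with at most 1% other-cell markers and 0.84 against the low cells rich in S100a8 and S100a9. Myb and Gfi1, a progenitor factor and a repressor needed for granulopoiesis, had 31 and 22 counts in the immature cells and 0 in the low group, so they were at least 4.55-fold and 3.23-fold higher against the floor. Gfi1, at 15.2 CPM, was under the 20 CPM minimum. With the smaller low groups the same floor gave log2 ratios of 0.32 and 0.0084 (at most 1% other-cell markers) and of -0.18 and -0.67 (low cells rich in S100a8 and S100a9), so neither gene is resolved there.

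In all, 6 of the 16 measured factors stood at least 2-fold lower in the immature neutrophils, beside 1685 of all 6300 genes. With the rule's genes out of the totals it was 3 of 17, beside 724 of 6705 genes. With trimmed mean of M-values factors it was 2 of 16, beside 424 of 6087 genes. Junb and Fos, subunits of the AP-1 factor, were at 40.0 CPM against 256 CPM and at 11.7 CPM against 64.1 CPM. Cebpb, the C/EBP family member of emergency granulopoiesis and macrophages, was at 149 CPM against 334 CPM. Irf8 and Irf5, interferon regulatory factors of monocytes and macrophages, had log2 ratios of -1.34 and -1.41. Cebpa, the factor of early myeloid precursors, had -1.46. With at most 1% other-cell markers Irf8, Irf5 and Cebpa were at -1.65, -2.46 and -1.48. Against the low cells rich in S100a8 and S100a9 they were at -0.43, -1.16 and -0.085, from 16, 9 and 3 low-group counts. Junb, Fos and Cebpb stayed at least 2-fold lower in both settings. Myc had only 3 and 7 counts. Runx1, Cebpd, Spi1, Id2, Foxo3, Klf6 and Bcl6 lay within 2-fold, between -0.73 and 0.22. Against the low cells rich in S100a8 and S100a9, Bcl6 and Foxo3 were at -1.89 and -1.40, from 13 and 7 low-group counts. The others stayed within 2-fold there. Over the 16 factors measured, 3 were higher, 6 were lower and the median was -0.53, close to that of all genes. With each of the smaller low groups 1 was higher and 6 were lower.

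Genes of mature neutrophils stood lower. Of 20 on the list, 13 were at least 2-fold lower and 2, S100a8 and S100a9, were higher, with a median of -1.48. Without the 5 genes the rule used, 10 of 15 were lower with a median of -1.20. With the rule's genes also out of the totals it was 7 of 15 with a median of -0.75, beside 724 of 6705 and -0.08 for all genes. S100a8 was at 122698 CPM in the immature cells, 20302 CPM in the Ter119 low group and 43531 CPM in the saline low group. Retnlg, which codes for resistin-like gamma, was at 911 CPM, 3087 CPM and 4659.9 CPM. Csf3r, the receptor of granulocyte colony-stimulating factor, was at 73.0 CPM, 486 CPM and 2098 CPM, and Cxcr2, the receptor for egress and recruitment chemokines, at 81.3 CPM, 320.4 CPM and 1190.1 CPM. The contrast asked for at least 1 UMI summed over these last 3 genes, which tilts them toward the low group, so their direction is a description only.

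Of the genes that the rule did not use, Il1b, which codes for the cytokine interleukin 1 beta, was at 17.9 CPM in the immature cells, 600.2 CPM in the Ter119 low group and 2555 CPM in the saline low group, 33.5-fold lower within Ter119. Stfa2l1, a stefin-like protease inhibitor gene, was at 2.76 CPM against 234 CPM, 85.1-fold lower. Clec4d, which codes for a C-type lectin receptor, was at 8.27 CPM against 266 CPM, 32.1-fold lower. Ifitm1, an interferon-induced membrane protein gene, had a log2 ratio of -3.86. For these 4 genes the direction was the same in all the alternatives run.

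Receptor and trafficking genes were at least 2-fold lower in 11 of 18, with 1 higher and a median of -1.26. Without Csf3r and Cxcr2, which the contrast used, 9 of 16 were lower with a median of -1.20. With the rule's genes also out of the totals this was 4 of 16 with a median of -0.75, beside 724 of 6705 and -0.08 for all genes. Itga4, the alpha subunit of the VLA-4 integrin, was at 53.7 CPM against 188 CPM. Cd14, the lipopolysaccharide coreceptor, was at 24.1 CPM against 84.4 CPM. Cxcr4, the receptor that retains neutrophils in the marrow, was at 129 CPM in the immature cells, 105 CPM in the low group and 349 CPM in the saline low group, and its log2 ratio within Ter119 ran from -0.70 to 0.90 over the alternatives.

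Cytokine and interferon response genes had the lowest medians of the 17 lists with all low cells; against the low cells rich in S100a8 and S100a9 the mature neutrophil list (-2.23) lay below the interferon list (-1.67). Of 12 cytokine and chemokine genes measured, 10 were at least 2-fold lower and none was higher, with a median of -1.73. Cxcl2, which codes for a neutrophil-attracting chemokine, had 2 counts (1.38 CPM) against 134 CPM, a ratio of 0.0103 (0.00122 to 0.0382). Ccl3 and Ccl4, which code for macrophage inflammatory proteins, were at 4.13 CPM against 42.2 CPM and at 11.0 CPM against 105 CPM. Of 14 interferon response genes, 12 were lower and none was higher, with a median of -1.78. Isg15, a ubiquitin-like modifier, was at 51.0 CPM against 313 CPM, and Ifit1, a sensor of foreign RNA, at 6.20 CPM against 68.8 CPM. In the other Ter119 cells Isg15 was at 104 CPM and Ifit1 at 33.9 CPM. The part of other cells' RNA in the interferon values was not tested. The medians were -2.80 and -2.99 with at most 1% other-cell markers, further from 0 than with all cells.

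The NADPH oxidase, the enzyme complex of the respiratory burst, stood higher in 3 of 6 genes and lower in none, with a median of 1.04. Ncf1 and Ncf4, cytosolic subunits, were at 601 CPM against 167 CPM and at 270.0 CPM against 100.0 CPM. Cybb, the membrane-bound catalytic subunit, was at 2317 CPM against 966 CPM. Rac2, the small GTPase of the complex, was within 2-fold at 808 CPM against 459 CPM. The median dropped to 0.72 with at most 1% other-cell markers and to 0.51 against low cells rich in S100a8 and S100a9. There 2 genes were higher and 1 was lower.

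**Figure D2:**
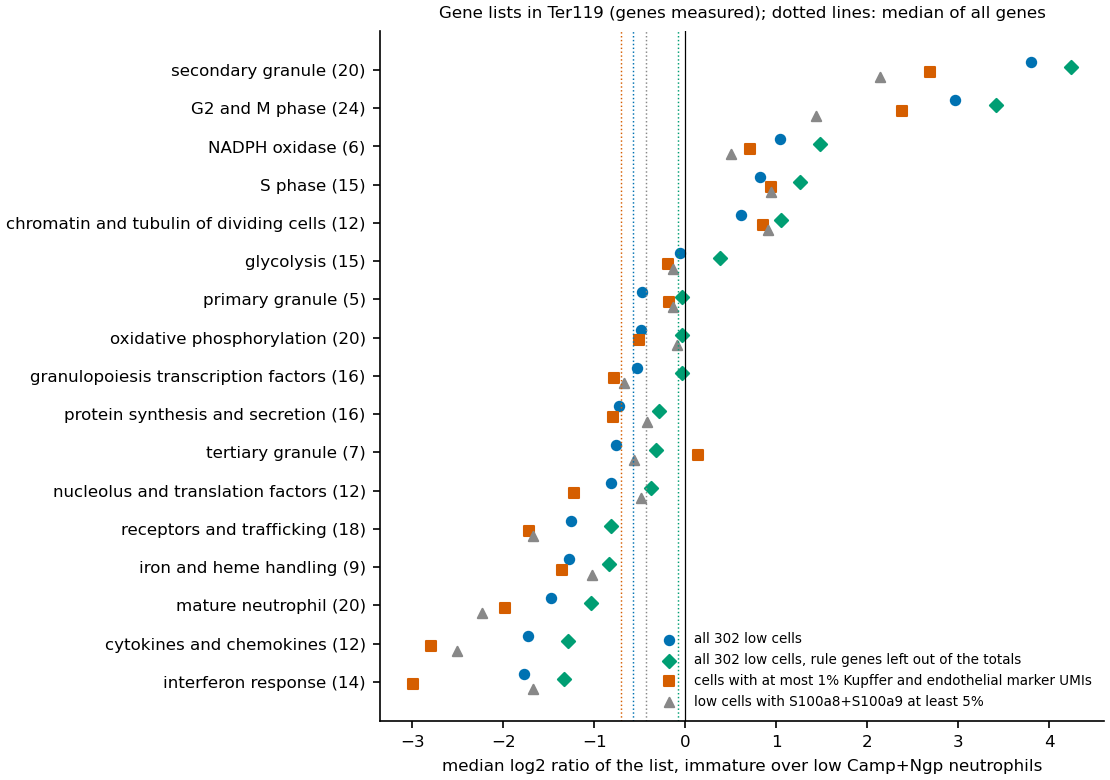
Median log2 ratio of each list, immature over low Camp and Ngp neutrophils of the Ter119 library, with the number of genes measured in brackets. Circles use all low cells, diamonds leave the rule's genes out of the totals, squares use cells with at most 1% Kupffer and endothelial marker UMIs and triangles use low cells with at least 5% S100a8 and S100a9; dotted lines mark all genes. Secondary granule (3.80) and G2 and M phase genes (2.97) lie farthest right, and interferon response (-1.78) and cytokine genes (-1.73) farthest left.

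Outside the lists, the 12 highest genes at 100 CPM or more included 2 genes linked to leukotriene B4, a lipid mediator. Lta4h, which codes for the enzyme that makes it, was at 351 CPM against 28.1 CPM, and Ltb4r1, which codes for a receptor of it, at 209 CPM against 9.38 CPM. Mgst2, which codes for a membrane-bound glutathione transferase, was at 142 CPM against 4.69 CPM, with 3 counts in the low group and a ratio of 30.3 (10.2 to 148). Ly6g, which codes for the surface antigen used to identify mouse neutrophils, was at 497 CPM against 48.4 CPM in the Ter119 low group and 46.1 CPM in the saline low group. Ly6g therefore stood higher in the immature cells than in the low neutrophils of either library. Ncam1, an adhesion molecule gene, was at 106 CPM with 2 counts in the low group, a ratio of 33.9 (9.24 to 283). Inhba, which codes for an activin subunit, was at 139 CPM against 7.81 CPM. Ifitm6 was at 1795 CPM against 150.0 CPM and was detected in 93.1% of the immature cells. AA467197, Zmpste24, Agpat2, Ckap4 and Adpgk completed the set, at log2 ratios of 4.50, 3.37, 3.28, 3.10 and 2.98.

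The 12 lowest genes outside the lists, among those not higher still in the other Ter119 cells, were led by Jaml, which codes for an adhesion molecule used by leukocytes to cross epithelia, at 2.07 CPM (3 counts) against 138 CPM, a ratio of 0.0150 (0.00304 to 0.0454). Fgl2, which codes for a fibrinogen-like protein, was at 27.6 CPM against 241 CPM, and Dusp1, a phosphatase gene of the immediate-early response, at 31.7 CPM against 252 CPM. Il1f9, which codes for the cytokine interleukin 36 gamma, was at 17.9 CPM against 133 CPM. Gcnt2, Myadm, Ier5, Tpd52, Pla2g7, Rnf149, Gpcpd1 and Tgfbi had log2 ratios between -2.56 and -1.94. These genes were chosen for the size of their ratio in this contrast.

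Among genes of basic metabolism, oxidative phosphorylation lay near the median of all genes and glycolysis above it. Of 20 oxidative phosphorylation genes none passed 2-fold, with a median of -0.48, and of 15 glycolysis genes 1 was lower, with a median of -0.06. Gpi1, which codes for glucose phosphate isomerase, was the glycolysis gene that stood highest, at 516 CPM against 267 CPM. Protein synthesis and secretion genes had a median of -0.73, with 2 of 16 lower, and nucleolus and translation factor genes -0.81, with 3 of 12 lower. With at most 1% other-cell markers 10 of the 12 nucleolus and translation factor genes were lower, with a median of -1.22. All genes had a median of -0.71 there. Against the low cells rich in S100a8 and S100a9, 1 of 11 was lower, with a median of -0.48. Iron and heme handling genes were at least 2-fold lower in 7 of 9, with a median of -1.28. With the rule's genes out of the totals it was 1 of 9, beside 724 of 6705 genes. With trimmed mean of M-values factors it was 0 of 9, beside 424 of 6087 genes. Fth1, the ferritin heavy chain, was at 10624 CPM in the immature cells, 26124 CPM in the low group and 29762 CPM in the other Ter119 cells. Hmox1, which codes for heme oxygenase 1, was at 1826, 4518 and 5696 CPM. Both follow the Kupffer markers in these groups. With at most 1% other-cell markers, 5 of 9 iron and heme genes were at least 2-fold lower, with a median of -1.36. Fth1 and Hmox1 had log2 ratios of -1.50 and -1.36 there, beside -1.30 and -1.31 with all cells. Against the low cells rich in S100a8 and S100a9, 5 of 9 were lower, with a median of -1.03. In that setting Fth1 and Hmox1 lay within 2-fold, with Hmox1 at -0.71. The part of Kupffer cell RNA in these iron and heme values was not tested.

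To place the cells among neighbouring stages, 5 groups of Ter119 cells were set side by side. Progenitors (25 cells) had over 2 UMIs and at least 0.5% of Elane, Mpo, Prtn3 and Ctsg. Cells as high in Camp and Ngp but with over 2 precursor UMIs numbered 34, and 13 of them were also among the progenitors. Intermediate cells (17) were like the low group but with 0.5% to 1% Camp and Ngp. The groups were drawn by these genes and are not a time course.

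Fcnb and Chil3 were highest in the cells with precursor UMIs, and Ltf and Lcn2 in the immature cells. Fcnb was at 1136 CPM in the progenitors, 1989 CPM in the cells with precursor UMIs, 292 CPM in the immature cells and 0 counts in the intermediate and low cells. Chil3 was at 2082, 6868, 5458, 377 and 46.9 CPM from progenitors to low cells. Ltf was at 183, 2543, 7158, 1375 and 43.8 CPM, and Lcn2 at 1098, 6522, 11562, 2637 and 585 CPM. Granule genes thus differed in which group held their highest level. Cebpe, the factor of this stage, was at 206, 465, 426, 37.7 and 10.9 CPM. Ly6g was at 7.63, 23.8, 497, 245 and 48.4 CPM, so it was near absent from both groups with precursor UMIs. Mmp8 and Retnlg were highest in the intermediate group: Mmp8 had 0 counts in both groups with precursor UMIs and then 723, 1262 and 389 CPM, and Retnlg was at 0 counts, 101, 911, 5500 and 3087 CPM in the same 5 groups.

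**Figure D3:**
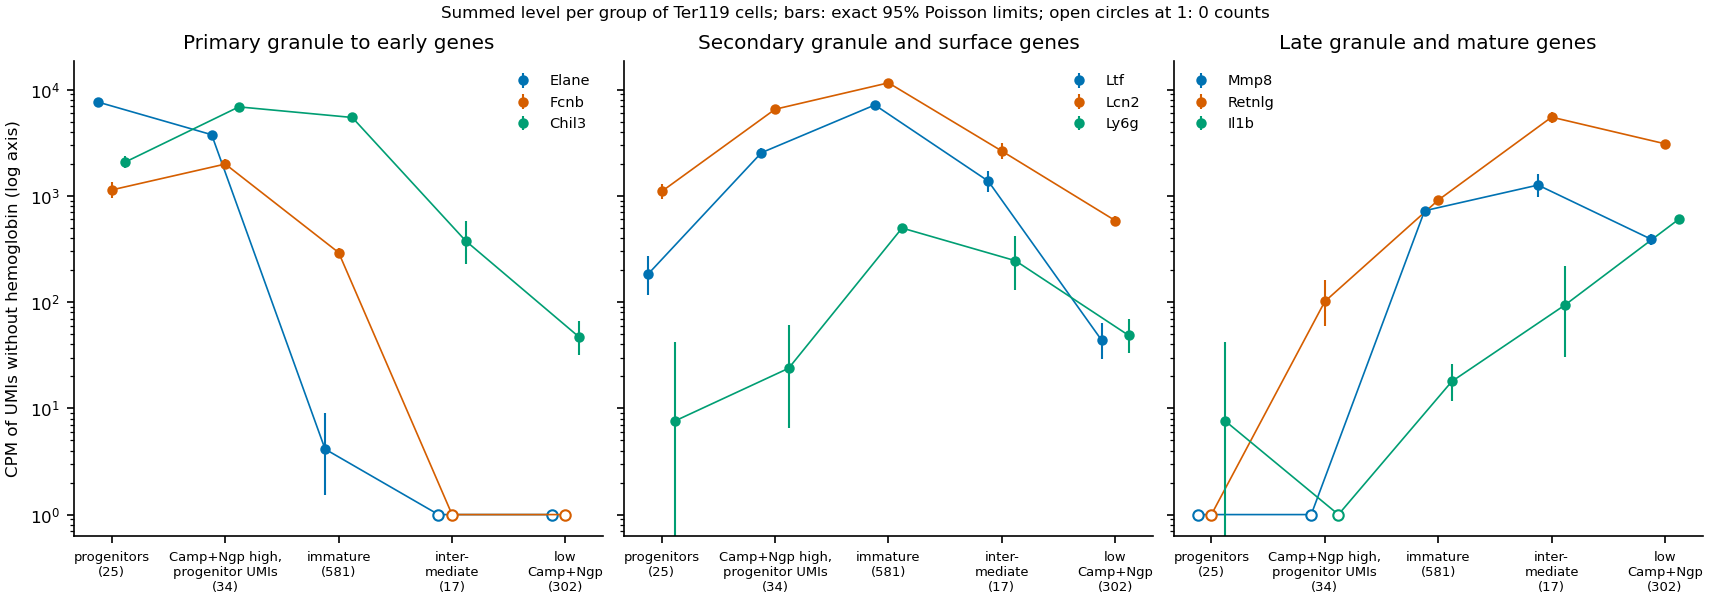
Summed level of 9 genes in 5 groups of Ter119 cells (number of cells in brackets), in CPM of UMIs without hemoglobin on a log axis; bars are exact 95% Poisson intervals and open circles drawn at 1 stand for 0 counts. Ltf and Lcn2 reach 7158 and 11562 CPM in the 581 immature cells; Fcnb is highest in the 34 cells with precursor UMIs (1989 CPM) and Mmp8 in the 17 intermediate cells (1262 CPM).

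Genes of cell division stood higher in the immature neutrophils. Of 24 G2 and M phase genes, 23 stood at least 2-fold higher than in the low group and none lower, with a median of 2.97. The median was 2.38 with at most 1% other-cell markers and 1.44 against low cells rich in S100a8 and S100a9, where 16 genes passed 2-fold. Summed, the 24 genes were at 3699 CPM in the progenitors, 3383 CPM in the cells with precursor UMIs, 2019.8 CPM in the immature cells, 132 CPM in the intermediate cells and 291 CPM in the low cells. Mki67, the proliferation antigen Ki-67, was at 251 CPM against 31.3 CPM in the low group, and Top2a, the topoisomerase of dividing cells, at 274 CPM against 28.1 CPM. Nusap1, which codes for a spindle protein, was at 123 CPM against 3.13 CPM, from 2 counts, with a ratio of 39.2 (10.7 to 326). Prc1, a gene of the cleavage midzone, had 105 counts and 0, at least 15.4-fold higher. Cenpf and Kif11, a kinetochore and a spindle motor gene, had log2 ratios of 4.02 and 4.33. Nusap1, Kif11 and Prc1 had 0 counts in both smaller low groups, so the floor of 3 counts sets their ratios there. Against the low cells rich in S100a8 and S100a9 these were log2 ratios of 2.35, 1.38 and 1.58. The part of the floor in the smaller list medians was not tested.

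S phase genes were less far apart, with 6 of 15 higher, none lower and a median of 0.82. Rrm2, which codes for a ribonucleotide reductase subunit, was at 75.8 CPM against 7.81 CPM, and Tyms, which codes for thymidylate synthase, at 26.2 CPM against 9.38 CPM. Chromatin genes of dividing cells were higher in 5 of 12, with a median of 0.61. Hmgb2 and Hmgn2, which code for high mobility group proteins, were at 2297 CPM against 378 CPM and at 1017 CPM against 93.8 CPM. H2afx, a histone variant gene, was at 142 CPM against 14.1 CPM, and Stmn1, which codes for the tubulin regulator stathmin, at 339 CPM against 79.7 CPM.

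Counted per cell after thinning each cell to 1000 UMIs without hemoglobin, 32.8% of the immature neutrophils had at least 2 UMIs of the 47 cell cycle genes (189 of 577 cells, 28.9 to 36.8), with 4 cells too shallow. Among the cells that had at least 2000 UMIs before thinning it was 50.9% (163 of 320 cells), so it differed with the cells' own depth. The share was 88.0% in the progenitors (22 of 25 cells, 68.8 to 97.5), 82.4% in the cells with precursor UMIs (28 of 34 cells, 65.5 to 93.2) and 19.6% in the low group (54 of 276 cells, 15.1 to 24.7; 26 too shallow). In the other Ter119 cells it was 15.5%, a value for a mixture of cells in which dividing cells were not set apart. With at least 3 UMIs the shares were 25% in the immature and 7.61% in the low cells. Without thinning they were 43.7% (39.6 to 47.9) and 37.1% (31.6 to 42.8) at 2 UMIs, where the intervals overlap. Thinned to 1500 UMIs they were 42.0% (37.4 to 46.7) and 34.4% (27.1 to 42.3), which also overlap, so a difference from the low group was not resolved at that depth and limit.

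The immature neutrophils varied among themselves along their Camp and Ngp share. They were cut into 4 equal parts by that share, which are ranges of a measure and not cell types. Among all 581 cells, 80 of the 146 in the lowest part had over 1% Kupffer and endothelial marker UMIs, and in the upper pair of parts none had. The values below are therefore for the 492 cells with at most 1%, in parts of 123 cells, as CPM of UMIs without hemoglobin, Camp and Ngp. This restriction was chosen after the data were seen.

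From the lowest to the highest part, the cell cycle share was 14.9% (9.06 to 22.5), 17.9% (11.6 to 25.8), 39.3% (30.6 to 48.6) and 60.2% (50.9 to 68.9). In this restricted set the intervals of the lower pair of parts do not overlap those of the upper pair. Over all 581 cells the shares were 22.2% (15.7 to 29.9), 15.3% (9.83 to 22.2), 34.7% (27.0 to 43.1) and 55.9% (47.4 to 64.1), where those of the lowest and the third part overlap. Mki67 was at 90.0, 218, 372 and 518 CPM, and Top2a at 67.5, 218, 471 and 528 CPM. Cebpe was at 359.8, 462, 604 and 703 CPM and Fcnb at 108, 199, 433 and 648 CPM. Both genes were highest in the part with the highest cell cycle share. Hp, which codes for haptoglobin, was at 702, 843, 1121 and 1169 CPM, and Chil3 at 3760.3, 5835, 7377 and 9863 CPM.

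Several late genes ran the other way, although the mature neutrophil list as a whole did not. Summed, its 20 genes were at 249769, 300714, 313844 and 341042 CPM from the lowest to the highest part. Most of that sum was S100a8 (127905 to 176055 CPM) and S100a9 (114416 to 162793 CPM). The receptor and trafficking list was at 2577, 2099, 1683 and 1314 CPM. Retnlg was at 3652, 1192, 224 and 185 CPM, and Mmp8 at 2024, 1192, 494 and 98.7 CPM. Mmp9 was at 1219, 948, 520.4 and 169.7 CPM, and Cxcr2 at 153, 131, 83.6 and 40.1 CPM. For Retnlg and Mmp8 the Poisson intervals of the lowest part and the highest part do not overlap: 3405 to 3912 CPM against 141 to 238 CPM for Retnlg, and 1841 to 2220.0 CPM against 67.5 to 139 CPM for Mmp8. Ltf was at 7327 CPM in the lowest part and then nearly level at 9558, 9683 and 9622 CPM. Wfdc21 was at 4462, 5445, 5695 and 5815 CPM. The median UMI count also differed between the parts, at 1591, 1827, 2140.0 and 2775, and hemoglobin took 10.9%, 7.87%, 6.40% and 6.21% of UMIs. The part of depth in these differences was not tested beyond the thinned shares.

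**Figure D4:**
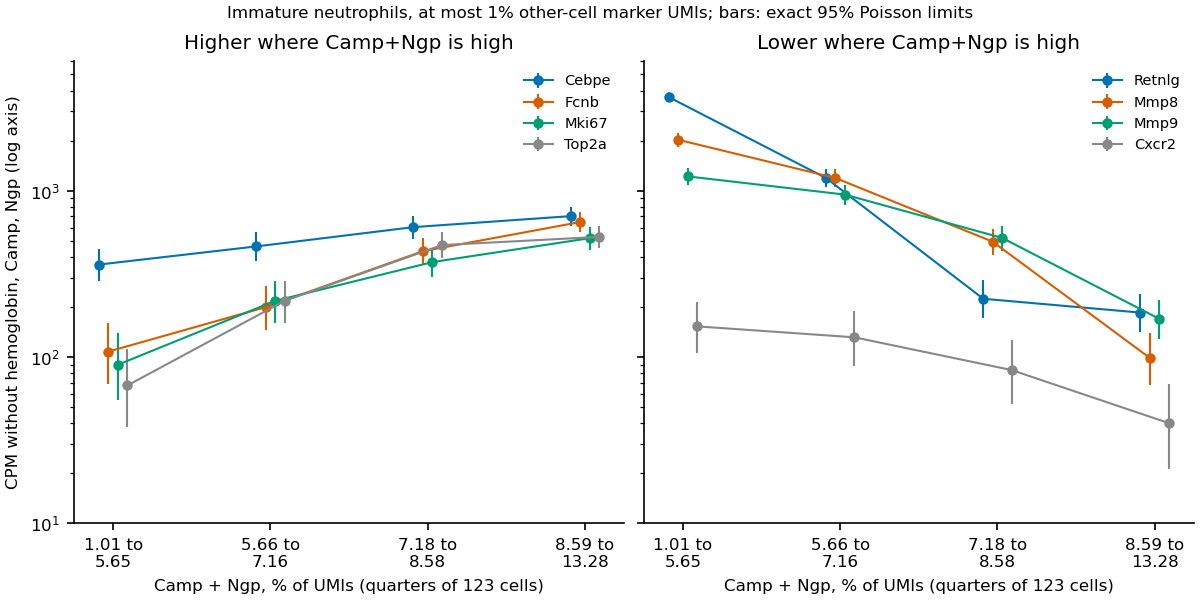
Level of 8 genes in 4 equal parts of the immature neutrophils ordered by Camp and Ngp share (123 cells each, at most 1% Kupffer and endothelial marker UMIs), in CPM on a log axis; bars are exact 95% Poisson intervals. Mki67 goes from 90.0 to 518 CPM and Retnlg from 3652 to 185 CPM between the lowest and the highest part.

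**Figure D5:**
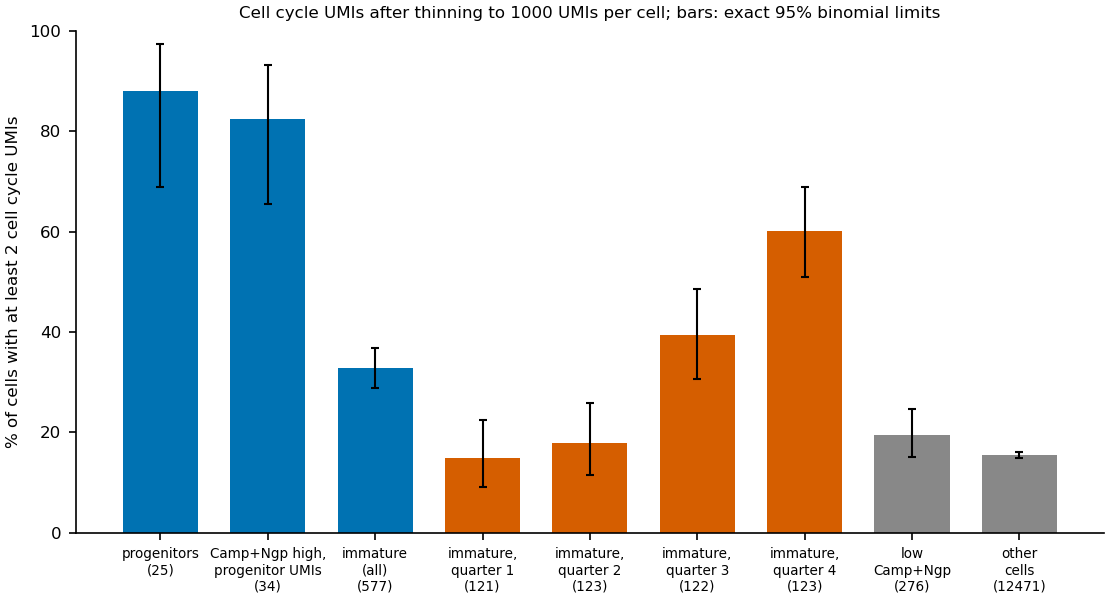
Percent of Ter119 cells with at least 2 UMIs of 47 cell cycle genes after thinning to 1000 UMIs per cell, with exact 95% binomial intervals and the number of cells used in brackets. The immature neutrophils as a whole are at 32.8%, and their 4 equal parts by Camp and Ngp share, at most 1% other-cell markers and lowest part first, run from 14.9% to 60.2%, beside the low group at 19.6% and the progenitors at 88.0%.

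Fewer different genes were detected in the immature neutrophils at equal depth. After thinning to 1000 UMIs, a median of 464 genes was detected per cell, beside 620.5 in the low group, 472 in the cells with precursor UMIs and 564 in the progenitors. The rule's genes took 29.7% of the immature cells' UMIs, and the low group held more UMIs of other cell types. The part of each in the number of genes was not tested.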

How the data were processed

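Single-cell RNA was measured in 2 libraries, 1 per treatment. Values are UMI counts per gene and barcode, deposited as matrices made by the authors with Cell Ranger 6.0.2 per the file headers. The submitters' processing notes name GRCm38.p6, DESeq2 1.26.0, Seurat 3.2.3, Scanpy 1.7.0 and another Cell Ranger version (4.0.0). For the use of hashtags, no step is stated in the labels. The members, the 17 gene lists and the 13 marker lists were chosen with earlier results of these data known.

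Cells were filtered and grouped as stated, and doublets were not removed. Counts were summed per group, scaled to CPM without hemoglobin and compared as ratios with exact conditional binomial intervals, with a floor of 3 counts for a 0. Genes with at least 20 CPM in either group were compared against a 2-fold rule of size. With 1 library per group no test was made. The ratios and their intervals were checked on simulated group sums that held counting noise only. Named were the markers, the rule's genes, up to 4 genes per list with the largest ratios, all listed transcription factors, and the 12 highest and 12 lowest genes outside the lists (at least 100 CPM, in at least 20% of cells, and not exceeded by the other Ter119 cells). Python 3.11.15, scipy 1.17.1 and edgeR 4.0.16 (normalization factors only) were used.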

Additional observations from a re-analysis of the deposited data

Results flagged for a closer look

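Barcodes that failed the cell filters were not part of the comparisons. Of 11914 such Ter119 barcodes, 67 met the Camp and Ngp rule (0.562%, 0.436 to 0.714). In saline it was 0 of 6782, with an upper Clopper-Pearson limit of 0.0544%. Of the 67, 37 had under 1000 UMIs, 51 had under 500 genes and 10 had over 15% mitochondrial UMIs. A further 820 failing Ter119 barcodes and 58 failing saline barcodes met the rule for low Camp and Ngp neutrophils.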

How the results depend on the processing

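The number of libraries, 1 per treatment, limits every comparison to a description of 2 libraries. No paired analysis was possible because each group has 1 sample and the result comes from no test.

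A low group with at least 5% S100a8 and S100a9, lower cell filters (500 UMIs and 250 genes), and a low group under 0.25% Camp and Ngp for the shares were chosen after seeing the data. Among kept cells, the Ter119 share was 3.49% at 2000 UMIs, 6.57% at 5% mitochondrial UMIs, 3.82% at 2% Camp and Ngp, 16.9% without cells over 1% Kupffer and endothelial markers and 3.23% with the lower filters. The saline share was 0.122% without cells over 1% of those markers. Among neutrophils the Ter119 share was 84.8% without such cells, 37.0% with the lower filters and 86.1% with the 5% limit. Cell cycle shares of the immature cells were 50.9% at 2000 UMIs, 42.0% thinned to 1500 UMIs, 43.7% not thinned and 25% at 3 UMIs. Those of the low group were 34.4%, 37.1% and 7.61% in the last 3 settings.

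Genes 2-fold lower numbered 1112 with CPM of all UMIs. Genes higher and lower numbered 766 and 724 without the rule's genes, 854 and 424 with trimmed mean of M-values factors, and 815 and 4779 with no minimum CPM. With those factors the all-gene median was 0.093. The list medians were then 0.12 for primary granule, -0.88 for mature neutrophil, -0.66 for receptor, 0.064 for transcription factor, 1.43 for S phase, 1.21 for chromatin, 0.54 for glycolysis, 0.12 for oxidative phosphorylation and -0.68 for iron genes. Without the rule's genes receptors were at -0.82, S phase at 1.26, chromatin at 1.05 and iron at -0.84. Chromatin was at 1.27 at 2000 UMIs, and tertiary granule at -1.02 at 2% Camp and Ngp. Without cells over 1% other markers, tertiary granule was at 0.14, NADPH oxidase at 0.72 and nucleolus at -1.22. NADPH oxidase was at 0.67 with the lower filters and 0.51 with the 5% limit. All other list medians kept their side of 2-fold.

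Of 125 named genes with counts, 100 were past 2-fold and 95 of these kept 1 direction in all settings. The exceptions were Prtn3 at -0.30 without cells over 1% other markers and, with the 5% limit, Myb at -0.18, Gfi1 at -0.67, Fbl at 0.10 and Pdia4 at 1.54. In these settings each had 0 to 2 counts in the smaller low group, and the values of Myb, Gfi1 and Prtn3 are set by the floor of 3 counts for a count of 0. For the other values above, the cause was not tested.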
